A study of Mus musculus with 12 samples.

Results

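The 10 genes described here encode enzymes that modify and crosslink collagen: the lysyl oxidases Lox, Loxl1, Loxl2, Loxl3 and Loxl4, the lysyl hydroxylases Plod1, Plod2 and Plod3, and the prolyl 4-hydroxylase subunits P4ha2 and P4ha3. They were chosen by name, and all 10 were found among the 22769 genes of the deposited mRNA table that were not listed at 0 throughout, of 35453 rows in all. All 10 also passed the filter for testing, a mean log2 value of at least 4, as did 14098 genes in total. The tumours were grown in Balb/c mice from 4T1, an established mammary carcinoma line of mouse origin that metastasises spontaneously. In the stress group the tumour-bearing mice were restrained for 2 hours a day over 28 days. In the control group the tumour-bearing mice were left untreated. Tumours of both groups were taken 35 days after inoculation, giving 3 libraries of mRNA and 3 of miRNA for each group. The labels do not say that each library came from a separate mouse, so the p-values measure the spread between these libraries, which may in part be technical. A tumour is a mixture of carcinoma, stromal and immune cells, and in such bulk samples fewer cells of a type and less RNA per cell cannot be told apart.

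Messenger RNA levels were deposited by the authors on a normalized log2 scale, and the sequencing depth behind them is unknown. Their spread over the libraries was narrower at low levels. The median range was 0.077 for genes with means of 2 to 3 and 0.26 for means of 9 to 10. Differences of weakly expressed genes may therefore be understated, which was not tested. Library medians over the genes tested lay between 8.91 and 8.92, and correlations between libraries lay between 0.991 and 0.997. The miRNA libraries held 1738056 to 3202224 counts. Markers of the labelled tumour cell type were found in every library. The mean log2 level of 6 epithelial markers was 11.87 to 12.09 in stress and 11.93 to 12.16 in control, above the library medians. None of them was at 0, but no gene that was kept was at 0 in any library.

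Collagen is made in the endoplasmic reticulum, where prolyl 4-hydroxylases hydroxylate prolines so that the triple helix is stable at body temperature. Lysyl hydroxylases hydroxylate lysines in the same chains. After secretion and trimming, the copper-dependent lysyl oxidases oxidise lysines and hydroxylysines, and the aldehydes formed react with neighbouring chains to give covalent crosslinks. In mammary tumours this machinery is known for stiffening the matrix, and several of its genes, among them Plod2, P4ha1, P4ha2, Lox and Loxl2, are known targets of hypoxia-inducible factors. The prolyl 4-hydroxylases act on helix stability and form no crosslink themselves. The comparison of stress with control asks where these genes stood in tumours of restrained mice.

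No member passed an adjusted p of 0.05 in limma, a threshold that 0.0355% of the 14098 genes passed (5 genes). The members did not share a direction. The means of Lox, Loxl1, Loxl2 and P4ha3 were lower in stress by 0.46 to 0.65 log2 units, whereas those of Plod2 and P4ha2 were higher by 0.39 and 0.30. Loxl4 and Plod1 were higher by 0.19 and 0.13, and Loxl3 and Plod3 by 0.04 and 0.03, differences that turned negative after quantile normalization. The 95% interval of the difference lay below 0 for Loxl1 and P4ha3, above 0 for Plod2, and held 0 for the other 7 members. By an unadjusted p under 0.05, 1 member was higher, against 8.26% of all genes, and 2 were lower, against 9.15% of all genes. Every stress library lay above every control library for 1 member and below for 2 members, against 12.1% and 12.3% of all genes. With 10 members these counts are near the shares among all genes. The median difference of the members was 0.03, beside 0.0014 over all genes tested.

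**Figure D1:**
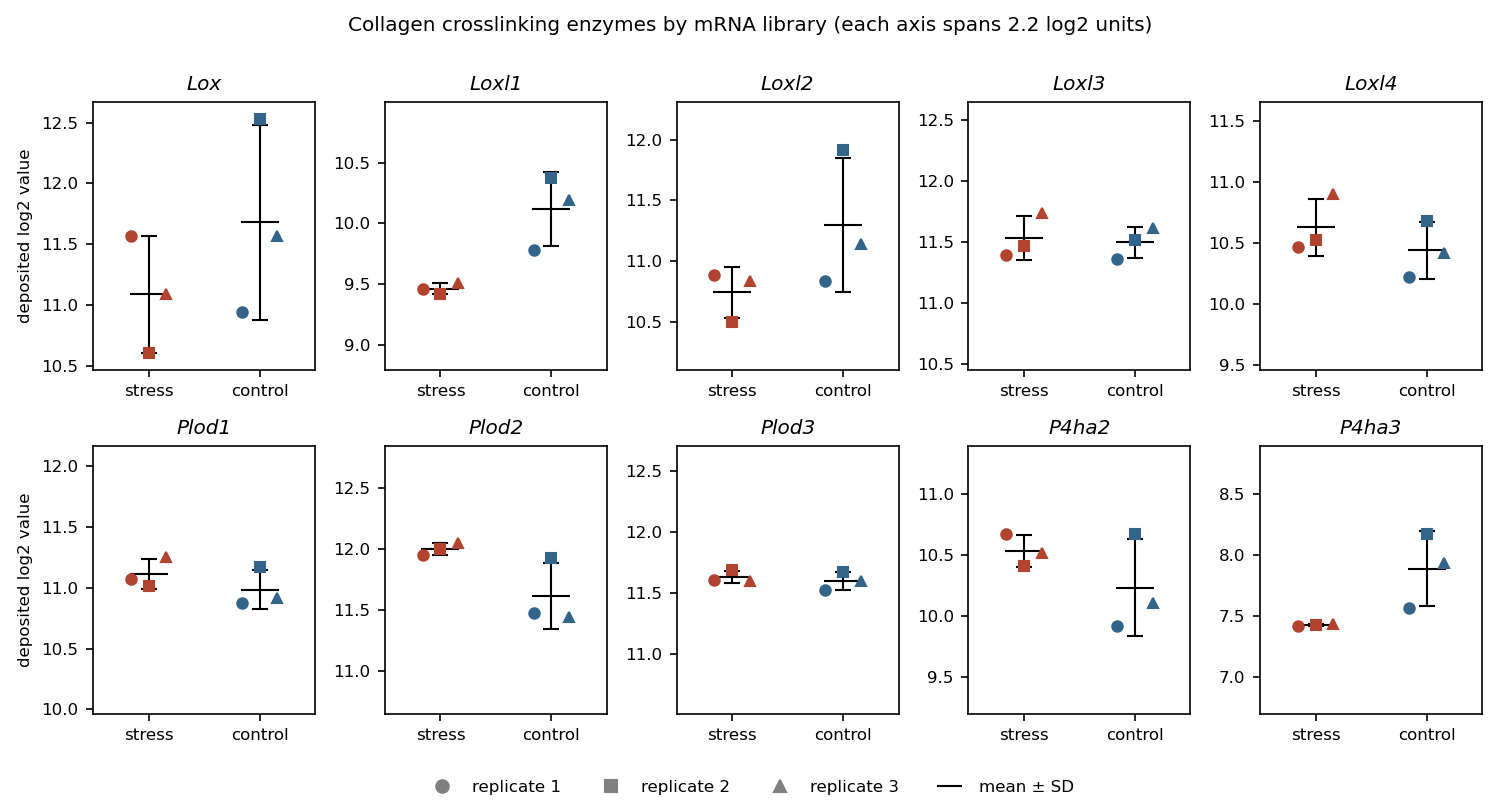
Deposited log2 values of the 10 members in the 3 stress libraries (red, left) and the 3 control libraries (blue, right), with the mean and SD as black lines, where every vertical axis spans the same width. The stress libraries lie below all controls for Loxl1 and P4ha3 and above all controls for Plod2, and control replicate 2 stands highest for Lox, Loxl1, Loxl2, P4ha2 and P4ha3.

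Among the lysyl oxidases, Loxl1 had the smallest p of all members. Loxl1 is needed for elastic fibre renewal in mice, where it is held at sites of elastin deposition by fibulin-5. Its log2 values were 9.46, 9.42 and 9.51 in stress replicates 1 to 3, against 9.78, 10.37 and 10.19 in control replicates 1 to 3. The groups did not overlap, and the controls spread more widely than the stress libraries. The means were 9.46 ± 0.045 in stress and 10.12 ± 0.30 in control (SD, n = 3 each). The difference was -0.65 ± 0.14 (SE), or 1.57-fold lower in stress, with a limma adjusted p of 0.120. Of the 14098 genes, 0.901% had a difference of larger size in either direction. The difference ran from -0.82 without control replicate 1 to -0.53 without control replicate 2, and it did not pass the threshold in any of the alternatives run (adjusted p from 0.0668 to 0.341).

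Lox, the founding member of the family, crosslinks fibrillar collagens and elastin. Its log2 values were 11.57, 10.61 and 11.09 in the stress libraries, against 10.94, 12.53 and 11.56 in the control libraries. The groups overlapped: control replicates 1 and 3 lay within the range of the stress libraries, and control replicate 2 stood above all other libraries. The difference was -0.59 ± 0.42 (SE; 95% interval -1.58 to 0.39, limma adjusted p = 0.491). It was -0.17 without control replicate 2, -0.35 without stress replicate 2 and -0.96 without control replicate 1. Among the members Lox had the largest within-group SD, 0.66 pooled over the groups.

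Loxl2, which acts on fibrillar collagen and on collagen IV of basement membranes, followed the order of Lox in the control libraries. Its log2 values were 10.89, 10.50 and 10.84 in the stress libraries, against 10.84, 11.91 and 11.14 in the control libraries. Control replicate 1 lay within the range of the stress libraries, so the groups overlapped. The difference was -0.55 ± 0.26 (SE; 95% interval -1.18 to 0.08, limma adjusted p = 0.338), and it was -0.25 without control replicate 2.

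The remaining lysyl oxidases did not share that pattern. Loxl3, which is required for palate and spine formation in mice, had log2 values of 11.40, 11.46 and 11.74 in stress and of 11.36, 11.52 and 11.62 in control. The groups overlapped almost completely. Its difference was 0.04 ± 0.10 (SE), with a 95% interval from -0.21 to 0.28. The sign turned without control replicate 1 (-0.03), without stress replicate 3 (-0.07) and after quantile normalization (-0.02). Loxl4 had log2 values of 10.46, 10.52 and 10.90 in stress and of 10.22, 10.68 and 10.41 in control, with the highest value in stress replicate 3. Its difference was 0.19 ± 0.15 (SE; 95% interval -0.16 to 0.54, limma adjusted p = 0.540), and it was 0.05 without stress replicate 3, 0.08 without control replicate 1 and 0.31 without control replicate 2.

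The lysyl hydroxylases all had higher means in stress, by amounts from near 0 for Plod3 to the highest positive difference of any member for Plod2, and the sign for Plod3 turned after quantile normalization. Plod2 encodes the hydroxylase of the telopeptides, the ends of the collagen molecule where hydroxylation leads to the more stable pyridinoline crosslinks. Its log2 values were 11.95, 12.004 and 12.05 in the stress libraries, against 11.47, 11.93 and 11.44 in the control libraries. All stress libraries lay above all controls, although stress replicate 1 and control replicate 2 were nearly level. The means were 12.001 ± 0.049 in stress and 11.61 ± 0.27 in control (SD, n = 3 each). The difference was 0.39 ± 0.13 (SE), or 1.31-fold higher in stress (95% interval 1.06 to 1.61), with a limma adjusted p of 0.202. It was 0.54 without control replicate 2 and 0.30 without control replicate 3, and past the threshold in none of the alternatives run (adjusted p from 0.0912 to 0.454).

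Plod1 hydroxylates lysines within the helix. Its log2 values were 11.07, 11.01 and 11.25 in stress and 10.87, 11.17 and 10.91 in control, and the groups overlapped through control replicate 2. The difference was 0.13 ± 0.10 (SE; 95% interval -0.10 to 0.36, limma adjusted p = 0.517), and it ran from 0.06 without stress replicate 3 to 0.22 without control replicate 2. Plod3, which also carries glycosyltransferase activity towards hydroxylysine, was the most even member. It had log2 values of 11.60, 11.69 and 11.60 in stress and of 11.52, 11.67 and 11.60 in control. The 95% interval of its difference ran from -0.10 to 0.16, so that a change of more than 1.12-fold upwards lay outside it.

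The prolyl 4-hydroxylase subunits P4ha2 and P4ha3 are alternative catalytic alpha subunits that pair with the same beta subunit, P4hb. P4ha3 had log2 values of 7.42, 7.43 and 7.44 in the stress libraries, against 7.56, 8.18 and 7.93 in the control libraries. The groups did not overlap, and the stress libraries were nearly identical. Its means were 7.43 ± 0.011 in stress and 7.89 ± 0.31 in control (SD, n = 3 each). The difference was -0.46 ± 0.14 (SE), or 1.38-fold lower in stress, with a limma adjusted p of 0.187. It ran from -0.63 without control replicate 1 to -0.32 without control replicate 2 (adjusted p from 0.0859 to 0.417 over the alternatives). P4ha2 had log2 values of 10.68, 10.41 and 10.52 in the stress libraries, against 9.91, 10.68 and 10.11 in the control libraries. The groups overlapped, because control replicate 2 was as high as the highest stress library. Its difference was 0.30 ± 0.19 (SE; 95% interval -0.14 to 0.74, limma adjusted p = 0.440), and it was 0.52 without control replicate 2 and 0.14 without control replicate 1. The difference between both subunits within a library, P4ha2 minus P4ha3, was 3.26, 2.98 and 3.08 log2 units in stress, against 2.35, 2.50 and 2.18 in control. This pair was picked after its values were seen and is a description only. Transcript length cancels in the comparison between libraries. An effect of level on the deposited scale need not cancel, since P4ha2 stood higher than P4ha3 in every library.

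The promoters of P4ha2 and P4ha3 are shown because the pair differed in direction and P4ha2 is a known target of hypoxia-inducible factors. The sequences are RefSeq's, on build GRCm38.p6, which is the assembly mm10, and each covers 250 bases before and 50 after the start that RefSeq annotates. For P4ha2 that start lies inside the gene as GENCODE M21 annotates it, since the GENCODE gene begins further upstream. Capitals mark matches to ACGTG or GCGTG, the core of the element bound by hypoxia-inducible factors, on either strand (CACGT and CACGC on the strand printed).
P4ha2, chr11:54100674-54100973, plus strand: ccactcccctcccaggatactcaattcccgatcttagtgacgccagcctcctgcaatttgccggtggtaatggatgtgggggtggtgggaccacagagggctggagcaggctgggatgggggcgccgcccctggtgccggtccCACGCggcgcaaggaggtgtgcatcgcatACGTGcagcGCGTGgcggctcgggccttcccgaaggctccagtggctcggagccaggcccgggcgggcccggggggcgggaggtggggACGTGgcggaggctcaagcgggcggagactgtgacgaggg
P4ha3, chr7:100285270-100285569, plus strand: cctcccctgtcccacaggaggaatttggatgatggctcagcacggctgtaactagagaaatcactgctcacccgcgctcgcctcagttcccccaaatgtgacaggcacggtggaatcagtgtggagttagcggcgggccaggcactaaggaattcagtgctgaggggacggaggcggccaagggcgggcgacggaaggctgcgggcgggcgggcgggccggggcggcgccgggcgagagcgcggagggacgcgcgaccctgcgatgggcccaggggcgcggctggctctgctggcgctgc

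The P4ha2 promoter held 4 matches, with first bases at -107, -78, -69 and +11 relative to the start, and the P4ha3 promoter held 0. Among the promoters of 10598 tested genes, 61.1% held at least 1 match and 7.18% held at least 4. The sequence table had promoters for 5 members. Plod3 had 4 matches, Plod1 had 2 and Loxl4 had 1, and the promoter of P4ha1, which is no member, had 3. A match is a string of letters and not a shown binding site.

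**Figure D2:**
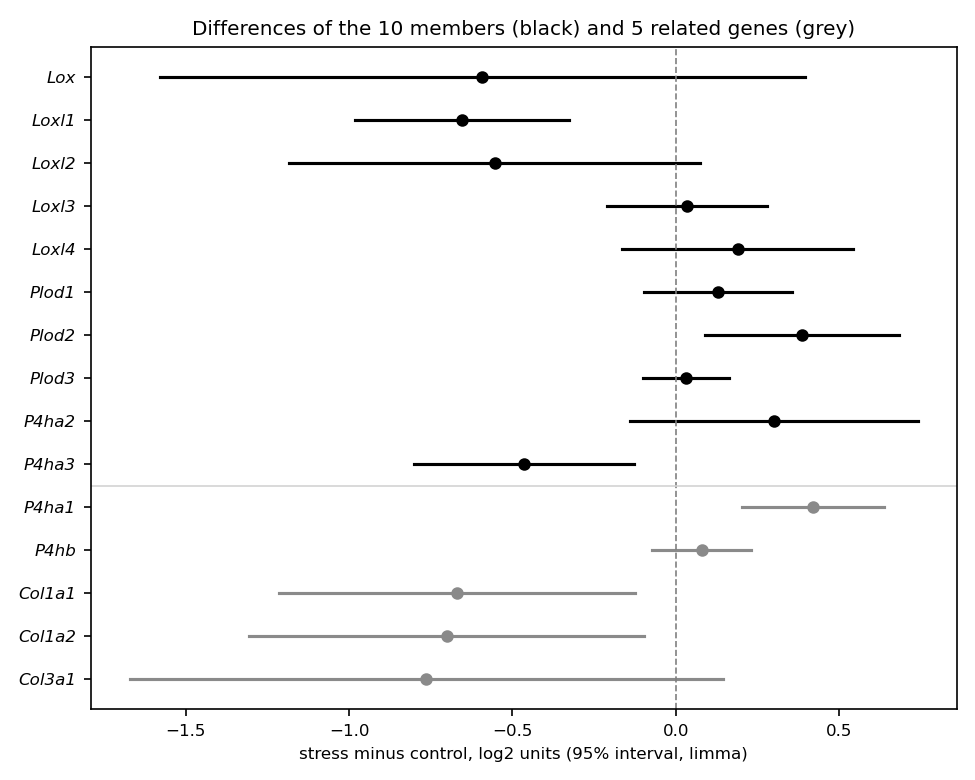
Stress minus control in log2 units with its 95% limma interval, for the 10 members (black) and for P4ha1, P4hb, Col1a1, Col1a2 and Col3a1 (grey). The intervals of Loxl1 and P4ha3 lie below 0 and that of Plod2 lies above 0, and the points of Loxl3 and Plod3, near 0, turn negative after quantile normalization.

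The libraries in which each member was highest and lowest were counted as a description. Control replicate 2 had the highest value for 5 members, Lox, Loxl1, Loxl2, P4ha2 and P4ha3. Stress replicate 3 had the highest value for 4 members, Loxl3, Loxl4, Plod1 and Plod2. Control replicate 1 had the lowest value for 5 members, and stress replicate 2 had the lowest for Lox, Loxl1 and Loxl2. The shares of all genes that were highest or lowest in each library were not recorded. These counts therefore do not tell a trait of the members from one of the libraries. The gene positions printed here show no shared locus, and that of Lox is not reported here. On GRCm38, Loxl1 (58287738 to 58313186) and Plod2 (92542223 to 92608428) lie on chromosome 9, far apart. Plod1 lies on chromosome 4 (147909753 to 147936767), Plod3 on 5 (136987019 to 136996648), Loxl3 on 6 (83034173 to 83052562) and P4ha3 on 7 (100285520 to 100319699). P4ha2 lies on chromosome 11 (54100095 to 54131665), Loxl2 on 14 (69609068 to 69695834) and Loxl4 on 19 (42593982 to 42612813).

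Most substrates of these enzymes had lower means in stress, and control replicate 2 was the highest library for all of those listed except Col2a1 and Col11a1. Col1a1, the main chain of type I collagen, had log2 values of 14.77, 14.51 and 14.48 in stress and of 14.73, 15.70 and 15.33 in control. Control replicate 1 lay within the range of the stress libraries. The differences were -0.67 for Col1a1 (limma adjusted p = 0.217), -0.70 for Col1a2 (0.237) and -0.76 for Col3a1 (0.352). Without control replicate 2 they were -0.45, -0.47 and -0.42 in the same order, and without control replicate 1 they were -0.93, -0.98 and -1.15. Of the 9 crosslinked substrates listed, fibrillar collagen chains and elastin, 8 were lower and 1 was higher. By an unadjusted p under 0.05, 4 were lower, against 9.15% of all genes. Of the 9, 0 passed the threshold, and their median difference was -0.63. The smallest p among them belonged to Col5a2 (-0.61, limma adjusted p = 0.179), a chain of the collagen V that nucleates fibrils.

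Relative to type I collagen in the same library, 5 members overlapped between the groups and 5 did not. Each value was taken as the gene's log2 value minus the mean of Col1a1 and Col1a2. That mean itself was 14.42 ± 0.19 in stress and 15.11 ± 0.50 in control (SD, n = 3 each), a difference of -0.69, so a gene without any difference stands 0.69 higher on this scale. The difference in this ratio was 0.09 for Lox, 0.03 for Loxl1, 0.13 for Loxl2 and 0.22 for P4ha3, and their groups overlapped, as did those of Loxl3 at 0.72. It was 1.07 for Plod2, 0.99 for P4ha2, 0.88 for Loxl4, 0.81 for Plod1 and 0.72 for Plod3. Every stress library lay above every control library for 5 members, Loxl4, Plod1, Plod2, Plod3 and P4ha2, against 29.7% of all genes. None lay wholly below, against 0.00709% of all genes. For P4ha2 the log2 ratios were -3.96, -3.96 and -3.74 in stress, against -4.65, -4.89 and -5.08 in control. This scale was chosen after the values were seen and was not tested.

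**Figure D3:**
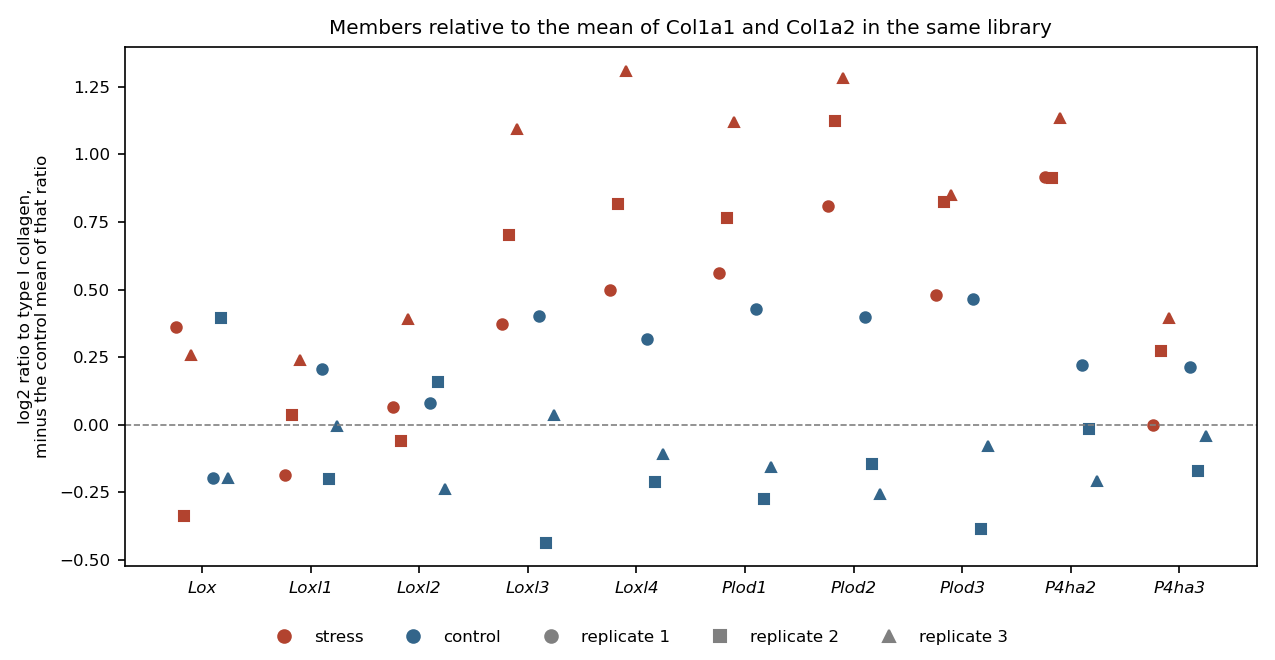
Log2 ratio of each member to the mean of Col1a1 and Col1a2 in the same library, shifted so that the control mean is 0, with stress libraries in red left of the control libraries in blue. Lox, Loxl1, Loxl2 and P4ha3 overlap around 0, while the stress libraries of Loxl4, Plod1, Plod2, Plod3 and P4ha2 lie above all controls.

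The other genes of collagen folding, modification and export were mixed. Of 16 listed, 6 were higher and 10 lower, with a median difference of -0.05 and 0 past the threshold. By an unadjusted p under 0.05, 2 were higher and 3 lower, against 8.26% and 9.15% of all genes. P4ha1, the most widely expressed alpha subunit, had log2 values of 12.33, 12.21 and 12.38 in stress, against 11.82, 12.08 and 11.76 in control. The groups did not overlap, as for Plod2, and the difference was 0.42 ± 0.093 (SE; limma adjusted p = 0.120). P4hb, the beta subunit that also works as a protein disulfide isomerase, differed by 0.08 ± 0.065 (SE; limma adjusted p = 0.555), and by 0.02 without stress replicate 3. Fkbp10, a prolyl isomerase that assists telopeptide hydroxylation by the Plod2 enzyme in human, differed in the direction opposite to Plod2. It had log2 values of 9.18, 8.89 and 8.90 in stress and of 9.46, 9.87 and 9.71 in control, and the groups did not overlap. Its difference was -0.69 ± 0.12 (SE; limma adjusted p = 0.0989). The remaining genes of these counts, named after their values were seen, were P3h2 (0.48 higher), P3h1 (-0.30) and Creb3l1 (-0.57). P3h1 and P3h2 encode prolyl 3-hydroxylases, and Creb3l1 a transcription factor of type I collagen in bone.

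Procollagen is trimmed by proteinases whose activity enhancer proteins raise. Of 8 such genes listed, 6 were tested, 1 was higher and 5 lower, with a median of -0.07 and 0 past the threshold. By an unadjusted p under 0.05, 1 was lower, against 9.15% of all genes. Bmp1, which removes the C-propeptide and also activates the Lox proenzyme, had a difference of -0.08 (limma adjusted p = 0.457). Adamts2, which removes the N-propeptide, had one of -0.42 (0.269), which was -0.23 without control replicate 2, and its groups did not overlap. Of 6 scaffolds of lysyl oxidases and other crosslinkers, 5 were lower and 1 higher, with a median of -0.37 and 0 past the threshold. By an unadjusted p under 0.05, 3 were lower, against 9.15% of all genes. Fbln5, the fibulin-5 that holds Loxl1 at elastic fibres, had a difference of -0.46 (limma adjusted p = 0.135) and the microfibril protein Fbn1 one of -0.97 (0.180), or -0.64 without control replicate 2. In both genes, as in Loxl1, all stress libraries lay below all controls.

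**Figure D4:**
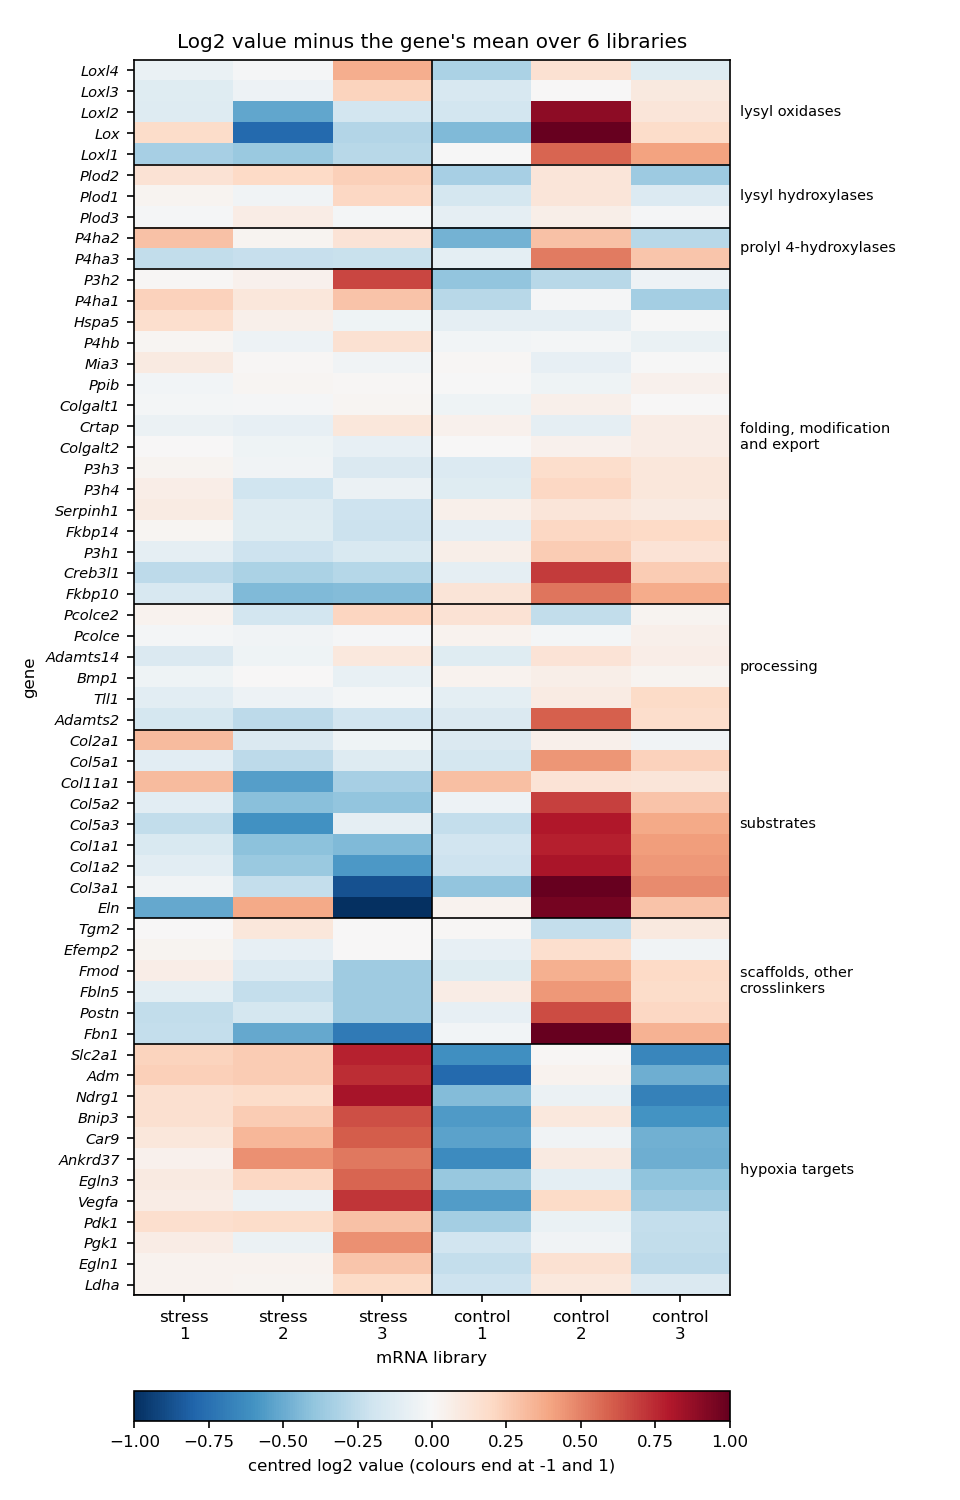
Log2 value of each gene minus its mean over the 6 mRNA libraries, for the members and the listed genes of folding, processing, substrates, scaffolds and hypoxia, with stress libraries left of control libraries. Control replicate 2 is red for Lox, Loxl1, Loxl2, P4ha3 and most collagen chains. The hypoxia genes are mainly red in the stress libraries, most in stress replicate 3, but Pgk1 and Vegfa lie below their means in stress replicate 2.

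Hypoxia genes had higher means in stress, as had Plod2, P4ha1 and P4ha2, whereas Lox and Loxl2, which are known targets of the same factors, had lower means. All 12 listed were higher, 9 of them by an unadjusted p under 0.05, against 8.26% of all genes. Of the 12, 0 passed the threshold, and their median difference was 0.64. Their mean log2 level was 11.38, 11.43 and 11.81 in stress replicates 1 to 3, against 10.80, 11.29 and 10.84 in control replicates 1 to 3. The groups did not overlap, and control replicate 2 was the highest control, as it was for every member except Loxl3. The smallest p values belonged to Pdk1, an inhibitor of pyruvate dehydrogenase (0.43, limma adjusted p = 0.104), and to Car9, a carbonic anhydrase of hypoxic tumour cells (0.70, limma adjusted p = 0.135). The list was drawn up with earlier results of these data known, and its part in the values of the members was not tested.

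Most stromal markers had lower means in stress, as had Loxl1 and P4ha3. Of 9 fibroblast markers, 8 were lower and 1 higher. Among these markers 4 were lower by an unadjusted p under 0.05, against 9.15% of all genes, and 0 passed the threshold. Their mean log2 level was 10.66 to 10.79 in stress and 10.72 to 11.27 in control, with control replicate 2 highest and control replicate 1 within the stress range. None of them was at 0, which held for every gene that was kept. Thy1 (-0.49, limma adjusted p = 0.0769) and Col6a3 (-0.57, 0.104) had the smallest p. The smooth muscle and pericyte markers were all lower (6 of 6), with a mean log2 level of 8.33 to 8.72 in stress and 8.79 to 9.17 in control, and the smallest p for Cspg4 (-0.62, limma adjusted p = 0.0825) and Acta2 (-0.77, 0.111). The part of these cells in the values of the members was not tested.

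Markers of other cell types also differed in their means. The endothelial markers were all lower (7 of 7, mean level 8.64 to 8.82 in stress and 8.98 to 9.24 in control), with the smallest p for Kdr (-0.55, limma adjusted p = 0.106) and Tek (-0.39, 0.136). The skeletal muscle markers were all lower (8 of 8, 7.79 to 9.07 in stress and 8.70 to 9.96 in control), with the smallest p for Mb (-0.55, limma adjusted p = 0.175) and Tnni2 (-0.27, 0.197). The largest differences in that list, named after their values were seen, were -1.58 for Acta1, -1.46 for Myh4 and -1.40 for Ckm, with overlapping groups (limma adjusted p = 0.312, 0.414 and 0.364). Of 6 adipocyte markers, 2 passed the filter and both were lower, Fabp4 (-0.67, limma adjusted p = 0.146) and Lpl (-0.75, 0.209). The neutrophil markers were higher in 5 of 6 (8.0 to 8.67 in stress and 7.65 to 7.80 in control), with the smallest p for Csf3r (0.62, limma adjusted p = 0.0881) and Clec4e (0.51, 0.105). S100a9 (1.21, 0.159) and S100a8 (0.86, 0.192), named after their values were seen, had larger differences. The macrophage markers were higher in 2 of 6, with Cd68 at 0.22 (0.131) and Adgre1 at -0.13 (0.609). The tumour epithelial markers were higher in 3 of 6, and among these Krt7 (-0.36, limma adjusted p = 0.221) had the smallest p, followed by Krt18 (0.10, 0.498). The part of these cells in the members' values was not tested.

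The miR-29 family was examined as a second readout, because it is known to repress collagen chains and lysyl oxidases through sites in their 3' untranslated regions. The mature sequences are RefSeq's on build GRCm38.p6, with the seed, bases 2 to 8, in capitals. All share the seed.
miR-29a-3p: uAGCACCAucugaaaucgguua
miR-29b-3p: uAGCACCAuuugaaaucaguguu
miR-29c-3p: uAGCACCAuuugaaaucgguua
The longest annotated 3' untranslated region of each gene in GENCODE M21 was searched for TGGTGCT, the complement of the seed, on the transcript strand. Matches were found for 4 of 10 members: 3 in Lox, 2 in Loxl2, 1 in Loxl4 and 1 in Plod1. Regions of similar length held a match in 28.5%, 25.5%, 13.1% and 11% of tested genes for these members in that order, and in 15.7% over all lengths. The sites in Loxl2, Loxl4 and Plod1 are shown with the match in capitals, and those in Lox are counted but not printed.
Loxl2, chr14:69694733-69694755, plus strand: ccccagctcatggaaTGGTGCTa
Loxl2, chr14:69695095-69695117, plus strand: agatagcattgtgaaTGGTGCTa
Loxl4, chr19:42595020-42595042, minus strand: aaggccccctctaagTGGTGCTt
Plod1, chr4:147910527-147910549, minus strand: gactggggctgcccaTGGTGCTc
Among the collagen chains searched, the Col1a1, Col3a1 and Col5a2 regions held 1 match each, that of Col5a1 held 4 and that of Col1a2 held 0. A match is a description and not a shown target site.

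The miR-29 members had differences of both signs. In miR-29a-3p the normalized abundance was 7368, 6642 and 8203 CPM in the stress libraries, against 6317, 5155 and 6111 in the control libraries. The groups did not overlap, and the share of all miRNAs tested for which this held was not recorded. The means were 7404 ± 781 in stress and 5861 ± 620 in control (SD, n = 3 each). The log2 ratio of stress over control was 0.34 ± 0.14 (SE), with an adjusted p of 0.204 in edgeR's quasi-likelihood test. The miRNA had an unadjusted p under 0.05, as had 8.66% of the 462 miRNAs tested in the higher direction. In miR-29b-3p it was 342, 383 and 467 CPM in stress, against 899, 386 and 482 in control, where control replicate 1 stood apart. Its log2 ratio was -0.57 ± 0.32 (SE; edgeR adjusted p = 0.323), and it was -0.10 without control replicate 1. For miR-29c-3p, at 27 to 51 reads in the stress libraries and 33 to 86 in the control libraries, the log2 ratio was -0.33 ± 0.32 (SE; edgeR adjusted p = 0.555), and it was -0.10 without stress replicate 2 and -0.05 without control replicate 3. By edgeR 0% of the 462 miRNAs passed the threshold, while 110 had an unadjusted p under 0.05 and DESeq2 called 32 past its own adjusted threshold, none of them a miR-29 member.

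**Figure D5:**
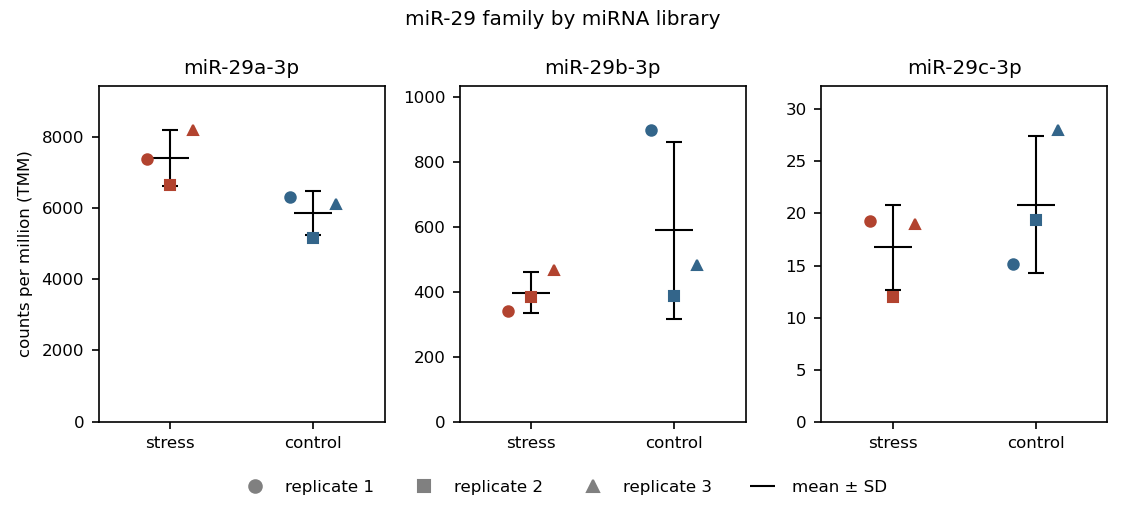
Normalized abundance (CPM) of the miR-29 family in the 3 stress libraries (red, left) and the 3 control libraries (blue, right), with mean and SD as black lines and axes that start at 0. The stress libraries of miR-29a-3p lie above all controls, while the groups of miR-29b-3p and miR-29c-3p overlap.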

How the data were processed

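Although its name speaks of raw counts, the mRNA table deposited by the authors holds fractional, normalized log2 values from -1.97 to 17.85. Kallisto 0.46.1, bcl2fastq and mm10 are listed, per the submitters' processing notes, with no step that would give log2 values. Rows at 0 throughout (12658) and rows named by a calendar date (26) were left out. Genes with a mean of at least 4 (14098) were fitted with limma 3.58.1 in R 4.3.3 (variance trend, robust, no covariate, two-sided), with Benjamini-Hochberg adjustment over all of them and 0.05 as the threshold. The deposited miRNA table holds read counts; 1978 mature miRNAs, each from its precursor row with the most reads, were fitted with edgeR 4.0.16 (TMM, filterByExpr, robust quasi-likelihood, 462 miRNAs), and its standard errors were taken from the F statistic. An exact permutation test of 3 against 3 libraries cannot go below 0.1. The fits were also run on simulated data with added differences, and the outcome is not reported here. Groups and replicate numbers came from the titles. The members and the 16 gene lists were chosen with earlier results of these data known. The rule for named genes took all members, P4ha1, P4hb, Col1a1, Col1a2, Col3a1, the miR-29 family and, of each other list, up to 4 called members or else the 2 with the smallest p. Alternatives were other scalings, filters and variance models, DESeq2 1.42.0 for the miRNAs, each library left out, and the replicate number as a block.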

Additional observations from a re-analysis of the deposited data

How the results depend on the processing

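Over 12 alternatives, no member and no other listed gene passed the adjusted threshold, and over 10 alternatives no miR-29 member did. Directions held for 8 of the 10 members under all of the 12. After quantile normalization the difference was -0.0155 for Loxl3 and -0.0101 for Plod3. Without single libraries it ran from -0.0681 to 0.104 for Loxl3, from -0.00607 to 0.0681 for Plod3 and from -0.231 to 0.0028 for the macrophage marker Adgre1. Also without single libraries, members with an unadjusted p under 0.05 numbered 0 to 3 higher and 2 to 4 lower. Members whose groups did not overlap numbered 1 to 4 above and 2 to 3 below. The shares of all genes were not recorded for these settings or for the replicate block below, and with fewer libraries non-overlap is easier to reach. These counts therefore describe the members only. The unadjusted higher count was 3 without control replicate 2 and 0 without control replicate 1, control replicate 3 or stress replicate 3. The lower count was 4 without control replicate 1. On the ratio to type I collagen, an alternative added after seeing the data, 5 members lay above and 0 below, against 29.7% and 0.00709% of all genes. Same-numbered mRNA libraries did not deviate together (r = -0.08, 0.08 and -0.02 across genes). Between same-numbered miRNA libraries r was -0.48, 0.31 and -0.13 across miRNAs for replicates 1 to 3, without a shared sign. The numbers were therefore not taken as pairs. With the replicate number as a block, 0 members passed the threshold, 1 was higher and 2 were lower by an unadjusted p under 0.05, and 0 of all genes were called, beside 5 without it. Of all genes 8 were called after quantile normalization, 11 with a mean of at least 6, and 0 without stress replicate 1, stress replicate 3, control replicate 1 or control replicate 3. The causes were not tested. The unknown depth of the mRNA libraries allows no counting limit.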
